A study of Mus musculus with 21 samples.

Results

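The genes described here are the receptors *Notch1*, *Notch2* and *Notch3*, the DNA-binding factor *Rbpj* and the target genes *Hes1*, *Dtx1* and *Nrarp*. They were taken by symbol, and all 7 were found among the 55421 genes of the QuantSeq table, together with the ChIP-seq peaks whose nearest gene was 1 of them (4 of 5898 Zbtb1 peaks and 5 of 6077 Cbfa2t3 peaks). All cells came from 1 mouse lymphoid progenitor (LP) line of C57BL6/J origin that lacks *Ebf1*, the factor that commits progenitors to the B lineage, and were grown on OP9 stroma with SCF, IL-7 and Flt3L. No Notch ligand was given to these cells. For QuantSeq, cells with Cas9 and GFP were given 2 pooled sgRNAs for 1 of the genes *Lmo2*, *Zbtb1*, *Cbfa2t2* and *Cbfa2t3*, or luciferase sgRNAs (sgControl), and the double-positive cells were collected 5 days afterwards, which gave 5 conditions with 3 biological replicates and 15 libraries. The cells of a condition were a pool of edited and possibly unedited cells, not a clone. Zbtb1 and Cbfa2t3 were each mapped by ChIP-seq in 2 replicates of LPs against input.

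Notch receptors sit in the cell membrane and are cut by a metalloprotease and then by gamma-secretase after a ligand on a neighbouring cell has bound them. The freed intracellular domain enters the nucleus and joins Rbpj and a Mastermind protein on DNA, where Rbpj otherwise recruits corepressors. In the thymus, this signal through Notch1 directs lymphoid progenitors into the T lineage, and *Hes1*, *Dtx1* and *Nrarp* are among the genes it switches on.

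The libraries held 1705416 to 2095447 reads, recovered from the deposited values, so that 3 reads, taken as the smallest measurable amount, were worth 1.43 to 1.76 TPM. This floor covers counting error only. Values called TPM here are each gene's share of the reads, scaled to the same total per library (CPM), and since QuantSeq counts each transcript near its 3′ end, they can be compared between genes without division by length. Of the targeted genes, *Zbtb1* mRNA averaged 106 ± 9.91 TPM under its own sgRNA against 61.7 ± 5.51 TPM in sgControl, and *Cbfa2t3* mRNA 350 ± 12.9 against 190 ± 18.7 TPM (SD, n = 3 each). Both rose (limma adjusted p = 0.00102 and 1.67e-07), while *Lmo2* and *Cbfa2t2* were not called (adjusted p = 0.956 and 0.412). Reads at the 3′ end count a transcript whether or not it carries a Cas9 edit, and protein was not analysed here, so these levels do not settle the labels. Every sgRNA name below stands for the libraries labelled with it. Of the lists of cell type markers, the 6 lymphoid progenitor genes summed to 827.4 to 1030.1 TPM per library and the 7 OP9 stroma genes to 1.96 to 14.2 TPM, with *Col3a1* at 0 in every library. The 6 T cell genes summed to 12.0 to 32.3 TPM, with *Trac* the highest and *Cd8a* at 0, and the 6 B cell genes to 0.00 to 20.0 TPM with *Cd79a* and *Ms4a1* at 0. The 6 myeloid genes summed to 7.67 to 39.4 TPM, with *Elane* at 0. In the libraries labelled sgZbtb1, the OP9 list (1.96 to 6.14 TPM against 4.63 to 11.7 TPM in sgControl), the T cell list (12.0 to 20.7 against 26.1 to 29.5 TPM), the B cell list (0.00 to 2.46 against 5.21 to 8.79 TPM) and the progenitor list (827.4 to 896.1 against 915.3 to 1019.8 TPM) were low, and in those labelled sgCbfa2t3 the myeloid list (26.6 to 35.4 against 23.2 to 26.0 TPM) was high and the B cell list (1.61 to 4.00 TPM) low. The myeloid list was low in sgLmo2 (7.67 to 18.7 TPM) and the T cell list in sgCbfa2t2 (13.4 to 21.7 TPM). Of these shifts, that of the OP9 list overlapped sgControl and the others did not. In the OP9, T cell and B cell lists only 1 gene each averaged above 1 TPM, *Pdgfrb* (5.64 TPM), *Trac* (22.3 TPM) and *Pax5* (4.96 TPM). The sums of these lists therefore rest largely on 1 gene. The part of these shifts in the results below was not tested.

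*Notch1* was the most abundant of the members, followed by *Rbpj* and *Notch2*, while *Nrarp*, *Notch3* and *Hes1* lay near the floor and *Dtx1* had no read in any library. The mean over the 15 libraries was 149 ± 28.6 TPM for *Notch1*, 51.3 ± 9.14 TPM for *Rbpj* and 42.4 ± 10.9 TPM for *Notch2* (SD, n = 15). *Notch1* ranked at the 89.1 percentile of the 11554 genes tested, *Rbpj* at the 67.9 percentile and *Notch2* at the 63.3 percentile. The lowest *Notch1* library, at 112.4 TPM, was above the highest *Notch2* library, at 72.3 TPM, and the highest *Rbpj* library, at 65.9 TPM, whereas the ranges of *Rbpj* and *Notch2* overlapped. The low members averaged 2.21 ± 1.31 TPM for *Nrarp*, 1.40 ± 1.43 TPM for *Notch3* and 1.38 ± 2.28 TPM for *Hes1* (SD, n = 15), which did not differ beyond their spread. *Nrarp* had more than 3 reads in 9 of the 15 libraries, *Notch3* in 6 and *Hes1* in 2. *Dtx1* had 0 of 28179128 reads over the 15 libraries, which allows a mean level of up to 0.106 TPM.

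**Figure D1:**
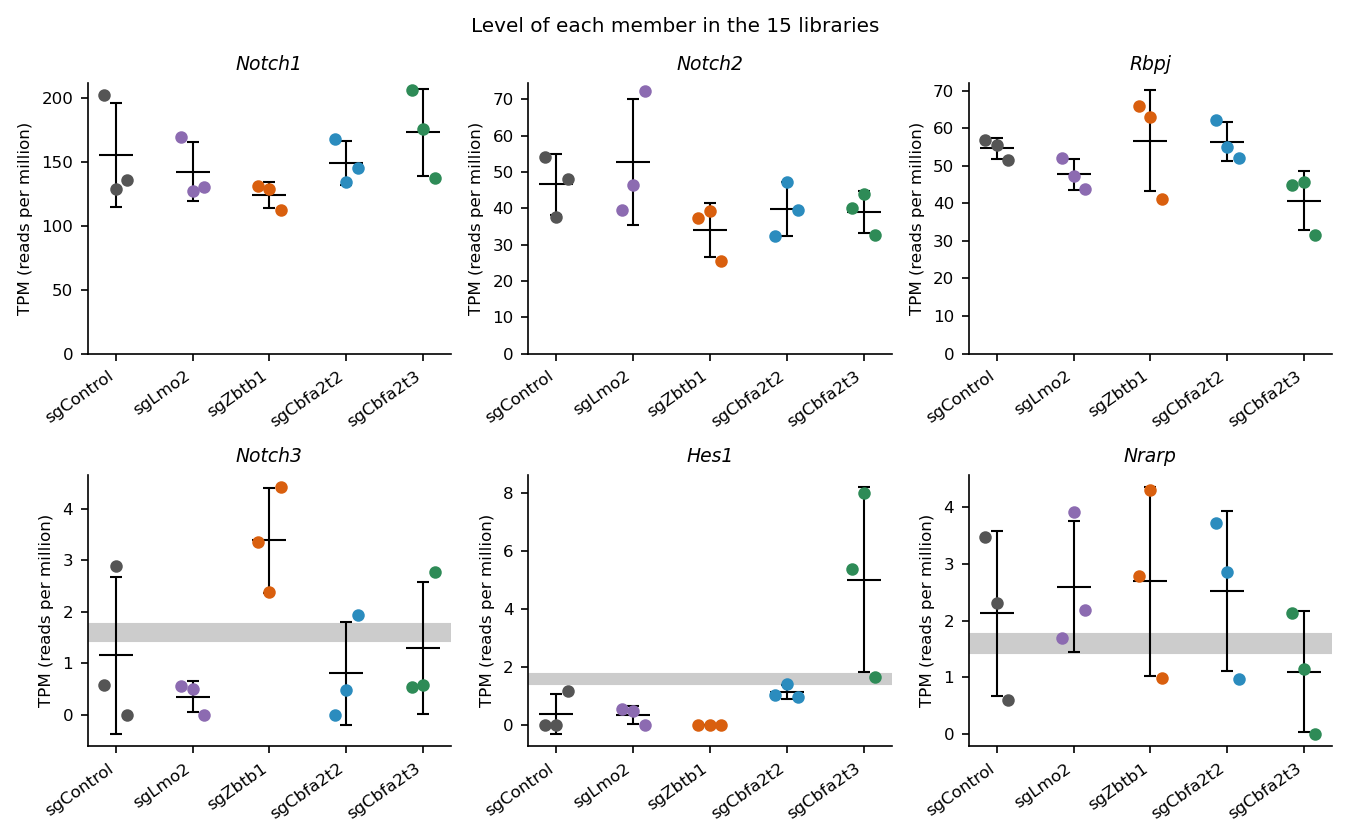
Level of 6 members in each library (y axis, TPM, linear; x axis, condition; points are libraries, bars the mean ± SD of 3 libraries), with the floor of 3 reads, 1.43 to 1.76 TPM, as a grey band in the lower row; *Dtx1*, at 0 in all 15 libraries, is not drawn. *Notch1*, *Notch2* and *Rbpj* lie far above the floor in every library, whereas *Hes1* lies clearly above it in 2 of the 3 sgCbfa2t3 libraries.

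The comparison with sgControl asks whether targeting Zbtb1, Cbfa2t3, Cbfa2t2 or Lmo2 left the Notch receptors and their nuclear effector in place in cells that were given no Notch ligand. Across the 6 members that could be tested, which leaves out *Dtx1*, none passed a limma adjusted p of 0.05 in any of the 4 comparisons. Of all 11554 genes, 1.85% were called higher and 2.94% lower in the libraries labelled sgZbtb1, 0.130% and 0.407% in those labelled sgCbfa2t3, 0.0260% and 0.121% in those labelled sgCbfa2t2, and 0.00866% in either direction in those labelled sgLmo2. At an unadjusted limma p under 0.05, 2 of the 6 members passed in sgZbtb1, beside 17.6% of all genes, and 2 in sgCbfa2t3, beside 10.6%. None passed in sgCbfa2t2, beside 9.56% of all genes, or in sgLmo2, beside 5.65%. The edgeR quasi-likelihood test on the recovered reads also called 0 members in each of these comparisons. DESeq2 called none of those to which it gave an adjusted p, which were all 6 in sgLmo2, 4 in sgZbtb1 (not *Notch3* and *Hes1*) and *Notch1* alone in sgCbfa2t2 and in sgCbfa2t3, so that its count says nothing of *Hes1* or *Rbpj* in sgCbfa2t3. *Hes1*, 1 of the 2 members that passed unadjusted in sgCbfa2t3, entered the test through its level in that condition, so this count is no support for a change among the members. All 4 comparisons share the sgControl libraries. In a bulk library, fewer cells that express a gene and less of its RNA per cell cannot be told apart.

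*Notch1* (ENSMUSG00000026923, minus strand of chromosome 2 of mm10, 26457903 to 26516663) encodes the receptor that drives T lineage entry. It was at 202.7, 129.1 and 136.0 TPM in sgControl, 169.6, 127.6 and 130.9 TPM in sgLmo2, 131.3, 129.1 and 112.4 TPM in sgZbtb1, 168.2, 134.6 and 145.4 TPM in sgCbfa2t2 and 206.4, 175.9 and 137.9 TPM in sgCbfa2t3. The 3 sgZbtb1 libraries did not overlap the 3 sgCbfa2t3 libraries, which were all higher, and every targeted condition overlapped sgControl. The mean was 124 ± 10.3 TPM in sgZbtb1 and 156 ± 40.6 TPM in sgControl (SD, n = 3 each). This is -0.30 as a log2 fold change of (TPM + 1) (standard error 0.14, 95% CI -0.57 to -0.03, limma adjusted p = 0.222). Without sgControl replicate 1, the highest of the 3, this value was -0.10. Replicate 1 was also the highest library in each of the other conditions, so leaving it out of sgControl alone unbalances the replicate numbers. In sgCbfa2t3 the log2 fold change was 0.16 (95% CI -0.11 to 0.43, limma adjusted p = 0.731; 0.03 without sgCbfa2t3 replicate 1 and 0.37 without sgControl replicate 1), in sgCbfa2t2 -0.04 (95% CI -0.31 to 0.23) and in sgLmo2 -0.11 (95% CI -0.38 to 0.16). These 4 intervals all lay between -1 and 1, that is within a 2-fold change. The gene Gm13568, which runs on the opposite strand over the 3′ end of *Notch1*, was at 0 in all 15 libraries.

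*Notch2* (ENSMUSG00000027878, plus strand of chromosome 3, 98013527 to 98150361), the receptor best known in marginal zone B cells, was at 54.0, 37.6 and 48.1 TPM in sgControl and at 37.4, 39.2 and 25.5 TPM in sgZbtb1. The groups overlapped by 1 sgControl library. The log2 fold change in sgZbtb1 was -0.45 (standard error 0.21, 95% CI -0.87 to -0.03, limma adjusted p = 0.241), with an exact permutation p (two-sided) of 0.2, for which 0.1 is the smallest possible with 3 libraries per group. Without sgZbtb1 replicate 3 it was -0.26. *Notch2* was at 39.6, 46.4 and 72.3 TPM in sgLmo2, 32.5, 47.2 and 39.6 TPM in sgCbfa2t2 and 40.2, 44.0 and 32.7 TPM in sgCbfa2t3, all overlapping sgControl, and the log2 fold changes were 0.15, -0.22 and -0.25 (limma adjusted p = 0.967, 0.808 and 0.738).

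*Notch3* (ENSMUSG00000038146, minus strand of chromosome 17, 32120820 to 32166852), a receptor found in immature thymocytes and in vascular smooth muscle, was at 0.58, 2.89 and 0.00 TPM in sgControl. The libraries labelled sgZbtb1 had 3.35, 2.39 and 4.42 TPM, which amounts to 20 reads in the 3 libraries together, where sgControl had 6, sgLmo2 2, sgCbfa2t2 5 and sgCbfa2t3 7. Every sgZbtb1 library was above the floor, but 1 of the sgControl libraries lay within their range. The log2 fold change was 1.23 (standard error 0.63, 95% CI -0.03 to 2.49, limma adjusted p = 0.300, exact permutation p = 0.2), and it was 0.80 without sgControl replicate 3 and 2.53 with a pseudocount of 0.1. In the other conditions the intervals ran from -1.73 to 0.79 in sgLmo2, from -1.43 to 1.09 in sgCbfa2t2 and from -1.07 to 1.45 in sgCbfa2t3. The direction of a difference was thus left undecided. The scale of (TPM + 1) compresses values near the floor, and in sgLmo2 the log2 fold change was -0.47 in limma and -1.55 with edgeR.

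*Rbpj* (ENSMUSG00000039191, plus strand of chromosome 5, 53466152 to 53657362), the factor through which all the receptors act on DNA, was at 56.9, 55.6 and 51.6 TPM in sgControl, 65.9, 63.1 and 41.2 TPM in sgZbtb1 and 45.0, 45.7 and 31.6 TPM in sgCbfa2t3. The 3 sgCbfa2t3 libraries were all below the 3 sgControl libraries, whereas the sgZbtb1 libraries lay on both sides of them. The mean was 40.8 ± 7.96 TPM in sgCbfa2t3 against 54.7 ± 2.76 TPM in sgControl (SD, n = 3 each). The log2 fold change was -0.43 (standard error 0.18, 95% CI -0.80 to -0.07), which passed at the unadjusted level and not after adjustment (limma p = 0.0207, adjusted p = 0.370, exact permutation p = 0.1). Without sgCbfa2t3 replicate 3 it was -0.26. *Rbpj* was at 52.0, 47.4 and 43.8 TPM in sgLmo2 and 62.3, 54.9 and 52.2 TPM in sgCbfa2t2, and the log2 fold changes were -0.19 and 0.04 (limma adjusted p = 0.949 and 0.972). Of its pseudogenes, Rbpj-ps1 was at 0 in all libraries and Rbpj-ps3 had 1 read in 1 of the 15.

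*Hes1* (ENSMUSG00000022528, plus strand of chromosome 16, 30064384 to 30067796) encodes a basic helix-loop-helix repressor and is the best known target of Notch signalling. Its levels were 5.36, 7.99 and 1.66 TPM with sgCbfa2t3, 0.00, 0.00 and 1.17 TPM in sgControl, 0.56, 0.49 and 0.00 TPM in sgLmo2 and 1.06, 1.43 and 0.97 TPM in sgCbfa2t2, and it had no read in any of the 3 sgZbtb1 libraries. All 3 sgCbfa2t3 libraries were above every other library, and 2 of them were clearly above the floor. The lowest of the 3, at 1.66 TPM, and the sgCbfa2t2 library at 1.43 TPM held 3 reads each, so that only depth sets them apart. In whole reads the conditions had 27, 2, 2, 7 and 0 reads in that order. Against sgControl the level in sgCbfa2t3 was 12.8-fold higher, with a counting interval of 3.23 to 111 (exact 95%, from 27 and 2 reads, and covering counting error only). The log2 fold change was 2.04 (standard error 0.63, 95% CI 0.78 to 3.31), which passed at the unadjusted level and not over all genes (limma p = 0.00193, adjusted p = 0.144, exact permutation p = 0.1). The edgeR quasi-likelihood test on the recovered reads gave an adjusted p of 0.216. Over the alternatives that gave a value, the adjusted p ran from 0.0716 to 0.390.

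*Nrarp* (ENSMUSG00000078202, plus strand of chromosome 2, 25180758 to 25183339) encodes a small ankyrin repeat protein that binds the Notch complex and limits its activity. It was at 3.48, 2.31 and 0.59 TPM in sgControl, 1.70, 3.91 and 2.19 TPM in sgLmo2, 2.79, 4.30 and 0.98 TPM in sgZbtb1, 3.73, 2.86 and 0.97 TPM in sgCbfa2t2 and 2.14, 1.14 and 0.00 TPM in sgCbfa2t3. All conditions overlapped. The lowest mean was that of sgCbfa2t3, the condition in which *Hes1* was highest, at 1.09 ± 1.07 TPM against 2.13 ± 1.46 TPM in sgControl (SD, n = 3 each). The log2 fold change was -0.60 (standard error 0.58, 95% CI -1.77 to 0.56, limma adjusted p = 0.767), and it ran from -1.03 without sgControl replicate 3 to -0.14 without sgCbfa2t3 replicate 3. *Dtx1* (ENSMUSG00000029603, minus strand of chromosome 5, 120680202 to 120711927), which encodes the E3 ubiquitin ligase Deltex, stayed at 0 in every condition.

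**Figure D2:**
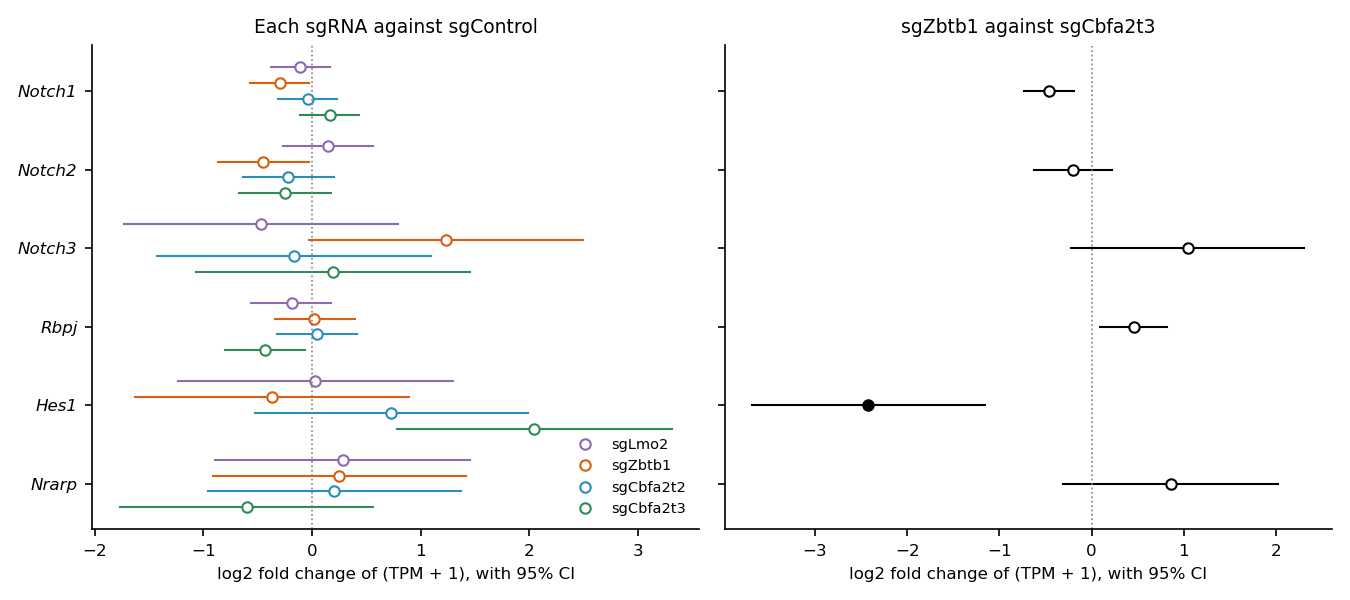
Log2 fold change of (TPM + 1) with its 95% confidence interval from limma (x axis) for the 6 members tested (y axis), for each sgRNA against sgControl on the left and sgZbtb1 against sgCbfa2t3 on the right; filled points have an adjusted p under 0.05. The only filled point is *Hes1* between sgZbtb1 and sgCbfa2t3, at -2.42, and the intervals of *Notch1*, *Notch2* and *Rbpj* are narrower than those of *Notch3*, *Hes1* and *Nrarp*.

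Zbtb1 and Cbfa2t3 were compared directly, to ask whether members differed between the libraries labelled with their sgRNAs, which are the libraries compared with sgControl above. *Hes1* was the member called here, 1 of 6, beside 1.13% of all genes (limma adjusted p = 0.0312). It passed the filter of a mean above 1 TPM through sgCbfa2t3, at 5.00 TPM, since the other conditions averaged 0 to 1.15 TPM, so the count of 1 is likewise no support. With every gene above 0 tested, its adjusted p was 0.00878, and with a pseudocount of 0.1 the call ended (adjusted p = 0.162). Its log2 fold change of -2.42 in sgZbtb1 against sgCbfa2t3 (standard error 0.63, 95% CI -3.68 to -1.16) depends on the pseudocount, because sgZbtb1 had no read. Against the floor of 3 reads per library, *Hes1* was at least 3.28-fold higher in sgCbfa2t3. The edgeR quasi-likelihood test gave an adjusted p of 0.0173 and DESeq2 gave none. The call was lost without sgCbfa2t3 replicate 1 (adjusted p = 0.141) and without sgZbtb1 replicate 1, 2 or 3 (adjusted p = 0.104, 0.108 and 0.0998). *Notch1* averaged 173 ± 34.3 TPM in sgCbfa2t3 against 124 ± 10.3 TPM in sgZbtb1 (SD, n = 3 each), with no overlap between the 6 libraries and a log2 fold change of -0.46 (standard error 0.14, 95% CI -0.73 to -0.19, limma adjusted p = 0.0822, exact permutation p = 0.1). With single libraries left out it ran from -0.33 without sgCbfa2t3 replicate 1 (adjusted p = 0.470) to -0.62 without sgCbfa2t3 replicate 3 (adjusted p = 0.0105). The *Notch1* difference was called in limma with the 6 libraries alone and with the replicate number as a block. *Rbpj* went the other way, with a log2 fold change of 0.46 (95% CI 0.09 to 0.82, limma adjusted p = 0.305) and overlapping libraries. At an unadjusted limma p under 0.05, 3 of the 6 members passed, beside 10.0% of all genes. *Hes1* was among them and entered the test through sgCbfa2t3, so this count is no support either.

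In a test for any difference over the 5 conditions, none of the 6 members passed the adjusted threshold, beside 4.54% of all genes. *Hes1*, which was in the test through its level in sgCbfa2t3, had a limma adjusted p of 0.0531, and passed with edgeR (adjusted p = 0.00905), with DESeq2 (adjusted p = 0.00316) and in limma with every gene above 0 (adjusted p = 0.0188). *Hes1* and *Notch1* were the members that passed at the unadjusted level, beside 16.7% of all genes.

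Among the 3 abundant members, Pearson's r of the log2 levels over the 15 libraries was 0.19 between *Notch1* and *Notch2*, 0.09 between *Notch1* and *Rbpj* and 0.10 between *Notch2* and *Rbpj*. Among the 8157 genes with a mean above 10 TPM, those most like *Notch1* were *Rbm28* (r = 0.87), *Gpat4* (0.82) and *Dapp1* (0.80), those most like *Notch2* were *Cnot2* (0.91), *Capn7* (0.91) and *Chuk* (0.89), and those most like *Rbpj* were *Ugcg* (0.84), *Uba3* (0.83) and *Pfdn4* (0.80). These values are descriptions over the same 15 libraries, which share conditions and depth, and the highest of many correlations over 15 points.

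The other genes of the pathway place the members in context. The list held 57 genes in 9 roles, of which 47 had a mean above 1 TPM and were tested. This filter is below the floor of 3 reads, so the lowest of them, such as *Aph1c*, were at or near the floor. Ligands were low, as *Dll1* had no read, *Dll3*, *Dll4* and *Jag1* averaged 0.0709, 0.256 and 0.0644 TPM, and *Jag2* was the highest at 4.72 TPM. *Notch4*, the remaining receptor, averaged 0.333 TPM. Of the machinery that modifies and cuts the receptors, the genes tested were all 5 glycosyltransferases (*Lfng* highest, at 46.1 TPM), all 3 proteases (*Adam10*, which makes the first cut after ligand binding, at 67.3 TPM) and all 7 gamma-secretase genes, of which *Aph1c* was near the floor at 1.84 TPM. All 7 coactivators and all 9 corepressors of Rbpj were measured too, with the acetyltransferase *Crebbp* at 198 TPM and the corepressor *Ncor1* at 609 TPM as the highest of each role. *Fbxw7*, which marks the intracellular domain for destruction, was the highest of the trafficking and turnover genes at 78.3 TPM. Of the other target genes, *Hey1*, *Hey2*, *Heyl* and *Ptcra*, the pre-T cell receptor chain, had no read in any library, as *Dtx1* did, and *Myc*, which many other pathways control, was the highest at 38.4 TPM.

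In the libraries labelled sgZbtb1, 3 of the 47 tested genes were lower after adjustment and none was higher, beside 2.94% and 1.85% of all genes, and 10 had an unadjusted limma p under 0.05, beside 17.6%. They were *Itch*, an E3 ubiquitin ligase that acts on Notch receptors, the Mastermind coactivator *Maml3* and the histone demethylase *Kdm5a*, which works with Rbpj in repression. *Itch* was at 38.5, 34.4 and 27.0 TPM in sgZbtb1 and 50.5, 54.4 and 63.9 TPM in sgControl, with no overlap (log2 fold change -0.75, SE 0.19, limma adjusted p = 0.00918). *Maml3* was at 83.2, 68.4 and 52.0 TPM against 85.4, 116.9 and 113.8 TPM, also without overlap (log2 fold change -0.64, SE 0.17, limma adjusted p = 0.0145). *Kdm5a* was at 172.1, 179.8 and 181.7 TPM against 196.3, 236.7 and 251.6 TPM (log2 fold change -0.35, SE 0.11, limma adjusted p = 0.0461). With DESeq2 and with every gene above 0, *Itch* alone was called (adjusted p = 0.00877 and 0.0182), where *Maml3* had 0.0502 and 0.123 and *Kdm5a* 0.0532 and 0.10. *Kdm5a* also lost its call with edgeR (0.0572), size factors (0.0584) and a pseudocount of 0.1 (0.0530). These members of the list act on both sides of the pathway, since *Maml3* activates with Rbpj whereas *Kdm5a* represses with it. The median log2 fold change was -0.01 over the list and -0.03 over all genes. In sgLmo2, sgCbfa2t2 and sgCbfa2t3, *Itch* was also below all sgControl libraries (log2 fold change -0.43, -0.46 and -0.30). *Maml3* was lower there too (-0.22, -0.43 and -0.35), and neither was called. All these comparisons share the sgControl libraries.

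In the libraries labelled sgCbfa2t3, *Kdm5a* was the only gene of the list called, at 149.1, 190.1 and 170.6 TPM, below all 3 sgControl libraries (log2 fold change -0.42, standard error 0.11, limma adjusted p = 0.0498), beside 0.407% of all genes lower and 0.130% higher. This call was kept by DESeq2 (adjusted p = 0.0283) and lost with edgeR (0.0682), the 6 libraries alone (0.0697), size factors (0.0567), a pseudocount of 0.1 (0.0663) and every gene above 0 (0.150). At an unadjusted p under 0.05, 6 of the 47 passed, beside 10.6% of all genes. The median over the list was -0.01, as it was over all genes. No gene of the list passed after adjustment in limma or edgeR in sgLmo2 or in sgCbfa2t2, where 5 and 8 of the 47 had an unadjusted limma p under 0.05, beside 5.65% and 9.56% of all genes. In the test over the 5 conditions none passed in limma, edgeR or DESeq2, beside 4.54% of all genes in limma, and 11 had an unadjusted limma p under 0.05, beside 16.7%. Without sgZbtb1 replicate 3 the adjusted p was 0.101 for *Itch*, 0.185 for *Maml3* and 0.0973 for *Kdm5a*, and without sgControl replicate 3 it was 0.0802, 0.0949 and 0.240. *Kdm5a* in sgZbtb1 also lost its call without sgControl replicate 2 or sgZbtb1 replicate 1 or 2, and *Maml3* without sgControl replicate 2 (adjusted p = 0.105). *Kdm5a* in sgCbfa2t3 reached an adjusted p of 0.341 without sgCbfa2t3 replicate 1, and lost its call without sgCbfa2t3 replicate 3 or sgControl replicate 2 or 3 as well.

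**Figure D3:**
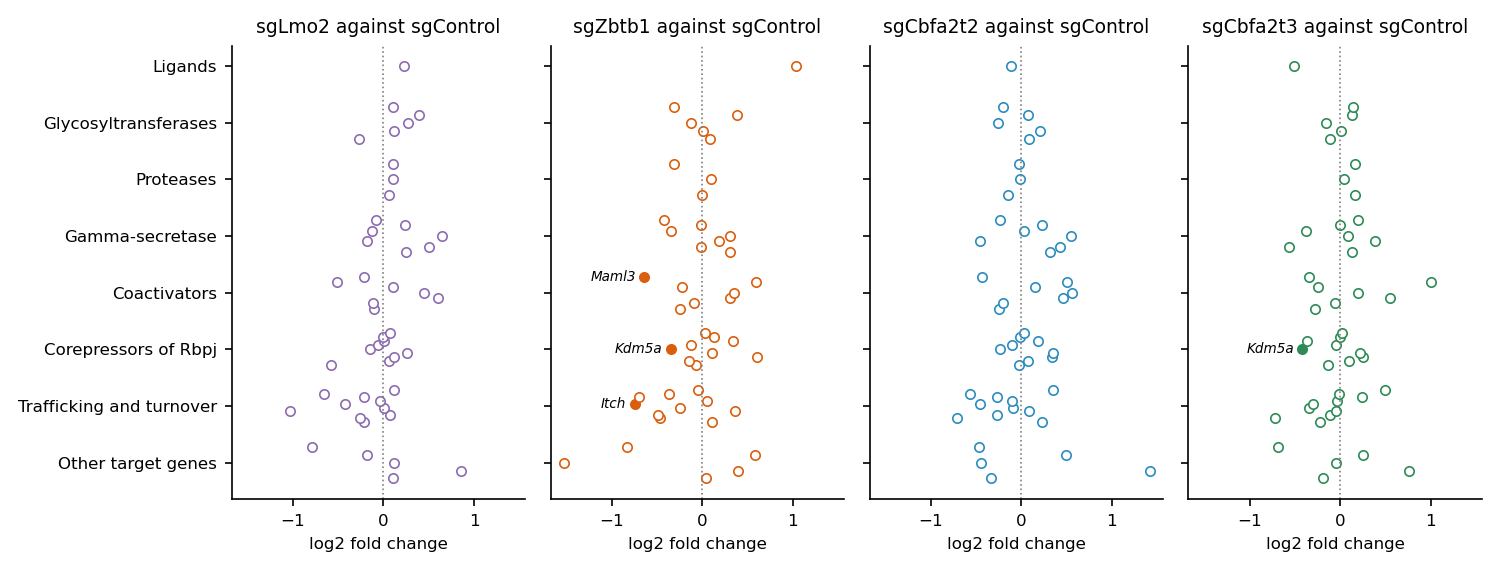
Log2 fold change of (TPM + 1) against sgControl (x axis) of the 47 tested genes of the Notch pathway, by role (y axis), in the libraries labelled with each sgRNA; filled and named points have a limma adjusted p under 0.05. The 4 filled points are all below 0, *Itch* (-0.75), *Maml3* (-0.64) and *Kdm5a* (-0.35) in sgZbtb1 and *Kdm5a* (-0.42) in sgCbfa2t3, and the open points lie on both sides of 0.

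In the ChIP-seq lists, 3 of the 6 tested members had a Zbtb1 peak assigned to them by nearest gene, beside 26.8% of the 11554 genes, and 3 had a Cbfa2t3 peak, beside 20.5%. The lists hold 1 set of peaks per factor with no replicate values, so that no test was run and the precision of a single peak is unknown. Zbtb1 peaks were assigned to *Notch1*, *Notch2* and *Hes1*, and all 4 lay within 10 kb of the start site. Cbfa2t3 peaks were assigned to *Notch2*, *Notch3* and *Hes1*, and 3 of 5 lay within 10 kb. No peak of either list was assigned to *Nrarp* or *Dtx1*. The assignment follows the gene name in the lists, which is empty for 463 Zbtb1 and 426 Cbfa2t3 peaks. Among these, the Zbtb1 peak chr5:53590628-53590998 (score 42.1) lies in intron 1 of *Rbpj*, 327 bp after the start of the transcript that the list names as nearest.

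Peaks that lie within a member or up to 10 kb before it but are assigned to another gene add to this picture. The highest Cbfa2t3 score at a member was that of the peak chr2:26513315-26513693, at 494.3, which ranked 9 among 6077 peaks. Scores were set within each list and are not compared between the factors. The list assigns it to the noncoding gene Gm35978, but it lies 9682 bp before the RefSeq start of *Notch1* and in an intron of a longer *Notch1* transcript in GENCODE. A Zbtb1 peak at chr2:26513318-26513688 covers the same site, with its centre 1 bp away, at a score of 22.1, which is at the 34.1 percentile of its list. This was the only site at a member where peaks of both factors overlapped. Over the whole lists, 1485 Zbtb1 peaks (25.2%) and 1485 Cbfa2t3 peaks (24.4%) overlapped a peak of the other factor. Cbfa2t3 peaks in introns or exons of *Notch1* at chr2:26483297-26483675 (score 33.2) and chr2:26458825-26459203 (score 31.7), and in an intron of *Notch2* at chr3:98101494-98101872 (score 33.2), were near the list's median score of 33.2.

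**Figure D4:**
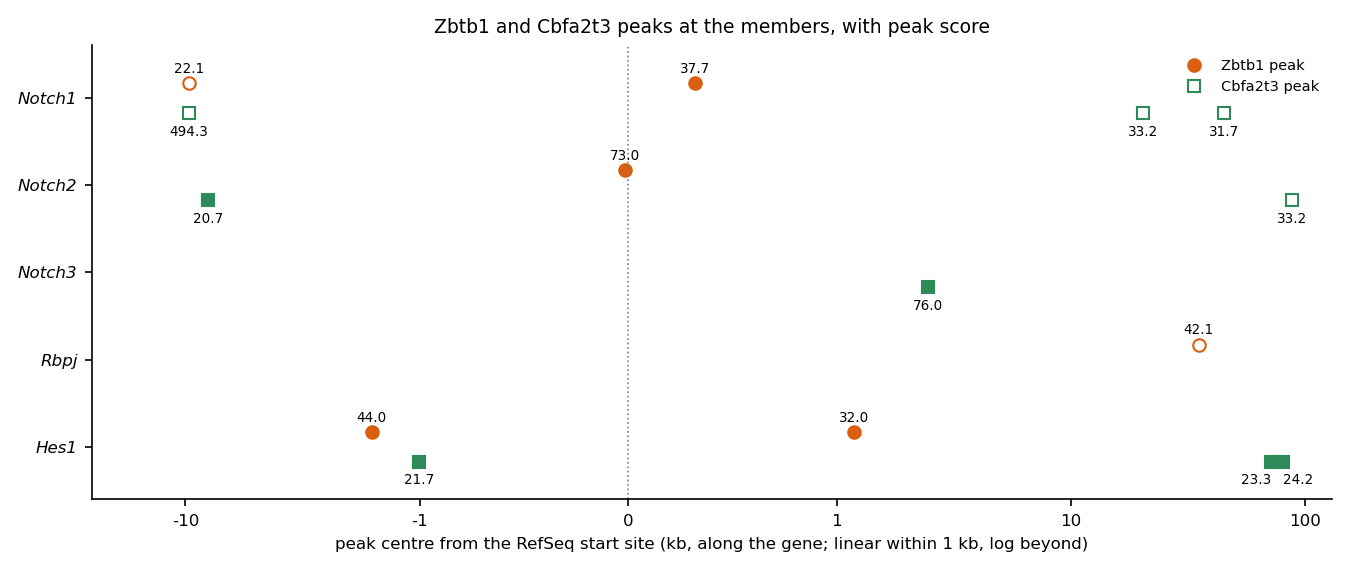
Centre of each Zbtb1 (circles) and Cbfa2t3 (squares) peak relative to the RefSeq start of the member (x axis, kb along the gene, linear within 1 kb and logarithmic beyond), with 1 row per member and the peak score as a number; filled symbols are peaks whose nearest gene in the list is the member, and open symbols lie in the gene or up to 10 kb before it. The 2 factors share 1 position, 9682 bp before *Notch1*, where the Cbfa2t3 score is 494.3 and the Zbtb1 score 22.1, and at *Hes1* their peaks lie side by side.

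At *Hes1*, the 2 factors had separate peaks near the start of the gene. The Cbfa2t3 peak reaches past the GENCODE start at 30064384, which lies before the RefSeq start at 30065357. The Zbtb1 peak chr16:30063568-30063938 (score 44.0, 71.0 percentile of its list) was centred 1604 bp before the RefSeq start and the Cbfa2t3 peak chr16:30064157-30064535 (score 21.7, 7.5 percentile) 1011 bp before it, so that the centres were 593 bp apart and the peaks did not overlap. A further Zbtb1 peak lay inside the gene, in intron 3 (chr16:30066364-30066734, score 32.0), and further Cbfa2t3 peaks lay 71699 and 80293 bp after the start (scores 23.3 and 24.2). At *Notch1*, the Zbtb1 peak chr2:26503314-26503684 (score 37.7) had its centre at the edge of the exon that holds the start codon, with intron 1 beside it, and the list calls it the promoter of the noncoding Gm35978. At *Notch2*, Zbtb1 had a peak at the start itself (chr3:98013337-98013707, score 73.0, 85.8 percentile), and Cbfa2t3 a peak 7985 bp before it that was close to the lowest score of its list (chr3:98005364-98005742, score 20.7). At *Notch3*, Cbfa2t3 had the highest of its peaks assigned to a member, in intron 1 (chr17:32164260-32164638, score 76.0, 86.4 percentile). In sgCbfa2t3, *Notch3* had levels of 0.54, 0.57 and 2.77 TPM.

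The sequences at the centres of 5 of these peaks are given because they hold the shared site at *Notch1*, the Cbfa2t3 site before *Hes1* and 1 site at each of the other receptors together with the Zbtb1 site at *Notch1*. They were read from GRCm38 on the plus strand, 5′ to 3′, over 200 bp at the peak centre, shortened where the window reached an annotated UTR or first exon. Capitals mark matches on either strand to the RBPJ core TGGGAA, the Runx core TGTGGT, the E box CANNTG and the Zbtb7c core TGGTGGT.
Notch1 upstream, Cbfa2t3 (shared with Zbtb1), chr2:26513405-26513604: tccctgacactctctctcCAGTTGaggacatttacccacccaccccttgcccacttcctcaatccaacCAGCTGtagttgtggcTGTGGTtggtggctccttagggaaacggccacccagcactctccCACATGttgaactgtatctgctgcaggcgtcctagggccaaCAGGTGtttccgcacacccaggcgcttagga
Notch1 intron 1 and coding start, Zbtb1, chr2:26503400-26503558: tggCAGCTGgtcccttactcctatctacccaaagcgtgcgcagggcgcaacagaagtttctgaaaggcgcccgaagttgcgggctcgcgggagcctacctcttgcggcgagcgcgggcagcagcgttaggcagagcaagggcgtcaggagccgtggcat
Notch2 start, Zbtb1, chr3:98013423-98013526: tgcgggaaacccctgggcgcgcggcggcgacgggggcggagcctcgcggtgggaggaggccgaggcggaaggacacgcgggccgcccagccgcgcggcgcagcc
Notch3 intron 1, Cbfa2t3, chr17:32164350-32164549: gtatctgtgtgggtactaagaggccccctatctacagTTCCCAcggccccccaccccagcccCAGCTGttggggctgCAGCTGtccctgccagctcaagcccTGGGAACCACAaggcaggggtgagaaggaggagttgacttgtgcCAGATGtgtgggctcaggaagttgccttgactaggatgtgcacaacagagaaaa
Hes1 upstream, Cbfa2t3, chr16:30064247-30064383: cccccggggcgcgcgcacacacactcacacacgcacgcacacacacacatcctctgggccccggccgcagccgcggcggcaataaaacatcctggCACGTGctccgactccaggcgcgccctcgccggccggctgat

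The printed part of the Zbtb1 window at *Notch2* was 82.7% G and C, and the window held none of the motifs. The printed part of the *Notch1* window, at 64.2%, held 1 E box, in the intron. The printed part of the *Hes1* window of Cbfa2t3 was 71.5% G and C and held 1 E box. The shared window before *Notch1* was 57.0% G and C and held 4 E boxes and 1 Runx core. The *Notch3* window held 3 E boxes, 1 Runx core and 2 RBPJ cores, 1 of which shares a base with the Runx core. Of the 5 Cbfa2t3 windows assigned to a member, all 5 held an E box, 2 a Runx core, 2 an RBPJ core and 1 a Zbtb7c core. Over all Cbfa2t3 windows, 89.3% held an E box, 43.7% a Runx core, 13.6% an RBPJ core and 7.02% a Zbtb7c core. Of the 4 Zbtb1 windows assigned to a member, 1 held an E box and 1 a Runx core, beside 53.6% and 41.3% of all Zbtb1 windows, and none held an RBPJ core or a Zbtb7c core, beside 10.2% and 15.8%. The Zbtb1 window in intron 1 of *Rbpj*, which has no gene name in the list, held 1 RBPJ core. The longer RBPJ form TGTGGGAA was in none of the 9 windows and in 1.44% of all Zbtb1 and 1.70% of all Cbfa2t3 windows. These matches are a description of letters in the windows.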

How the data were processed

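QuantSeq and ChIP-seq samples were grouped by their titles. For QuantSeq, the authors used fastp and STAR with mm10 and scaled libraries to 1 total. What the authors deposited as TPM behaves as CPM, because whole reads could be recovered for 100% of values (within 0.05 reads). The 1 line with no identifier (at most 5.86e-05% of a library) was dropped, and 18 columns of the authors' own means, SDs, p-values and fold changes were not used. The 11554 genes with a mean above 1 TPM were tested on log2(TPM + 1) in limma 3.58.1 (trend on the mean, 15 libraries, two-sided, Benjamini-Hochberg, threshold 0.05). Alternatives were edgeR 4.0.16 and DESeq2 1.42.0 on the recovered reads, a pseudocount of 0.1, every gene above 0, median-of-ratios size factors, a replicate block, the 6 libraries alone and single libraries left out, and for peaks other distances, scores, overlaps and windows. The limma step was tested on simulated data with changes set in 200 genes above 10 TPM. Of these 161 were called, together with 9 unchanged genes. No change was set in a gene near the floor. Replicates correlated at r = 0.957 to 0.967 across genes, which are not independent, and differed beyond sampling noise.

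The authors aligned ChIP-seq reads with Bowtie 1.1.1 and deposited reproducible HOMER peaks with a normalized peak score of at least 15 and the nearest gene. Peak coordinates are as listed. Gene positions are from GENCODE vM21.

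The members and the pathway and marker lists were chosen with earlier results of these data known. Named from the pathway list are genes past the adjusted threshold and the highest gene per role, with the 3 genes most correlated with each abundant member and the 4 targeted genes. *Aph1c*, ligands at or near 0, target genes at 0 and the genes at the peaks were named in addition, after their values were seen. A gene that this rule chose and a peak sequence are not reported here.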

Additional observations from a re-analysis of the deposited data

How the results depend on the processing

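The count of members past the threshold against sgControl was 0 under every alternative run, but DESeq2 gave no adjusted p to *Notch3* and *Hes1* in sgZbtb1 or to any member other than *Notch1* in sgCbfa2t2 and sgCbfa2t3, so its 0 does not test them. When single libraries were left out, log2 fold changes against sgControl changed sign or reached 0 in some fits, and these ran from -0.24 to 0.09 for *Notch1* in sgLmo2, -0.16 to 0.17 for *Notch1* in sgCbfa2t2, -0.10 to 0.33 for *Notch2* in sgLmo2, -0.90 to 0.08, -0.61 to 0.37 and -0.25 to 0.73 for *Notch3* in sgLmo2, sgCbfa2t2 and sgCbfa2t3, -0.10 to 0.24 and -0.03 to 0.10 for *Rbpj* in sgZbtb1 and sgCbfa2t2, -0.15 to 0.41 and -0.56 to 0.00 for *Hes1* in sgLmo2 and sgZbtb1, and -0.15 to 0.60, -0.17 to 0.65 and -0.23 to 0.58 for *Nrarp* in sgLmo2, sgZbtb1 and sgCbfa2t2. *Hes1* in sgLmo2 was also below 0 with edgeR (-0.12) and DESeq2 (-0.15). Between sgZbtb1 and sgCbfa2t3, the *Hes1* value was -5.42 and no longer called with a pseudocount of 0.1, and -2.92 to -2.29 with a library left out. *Notch1* was called at -0.46 with the 6 libraries alone, and ran from -0.62 to -0.33 with a library left out. The count of members there was 2 with the 6 libraries alone, 0 with a pseudocount of 0.1, 0 with DESeq2, which gave *Hes1* no adjusted p, and 0 to 2 with a library left out. For any difference over the conditions, 1 member was called with edgeR, DESeq2 and every gene above 0, and 0 to 2 with a library left out. The adjusted p of *Hes1* was then 0.00905, 0.00316, 0.0188 and 0.0302 to 0.207, and that of *Notch1* 0.0425 to 0.509 with a library left out. In fits without sgCbfa2t3 replicate 2, *Hes1* had too low a mean to be tested.

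Deviations from the group means of libraries with the same replicate number correlated at a mean r of 0.0279, and those with different numbers at -0.0139. The methods of the study do not state a pairing, so none was used elsewhere. With the replicate number as a replicate block, 2 members were called between sgZbtb1 and sgCbfa2t3, *Hes1* and *Notch1* (-0.46, adjusted p = 0.0159), and 1 over the 5 conditions, *Hes1* (adjusted p = 0.0449). The pathway list then had 3 calls over the 5 conditions (*Kdm5a*, *Maml3* and *Myc*) against 0, and its counts against sgControl were as before. Of the 15 libraries, 14 correlated best with their own number, and the *Notch1* library with number 1 was the highest in each of the 5 conditions, a hint from the data and not from the design.

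The pathway list had 1 call in sgZbtb1 with DESeq2 and with every gene above 0, and 0 to 4 with a library left out. In sgCbfa2t3 it had 0 with the 6 libraries alone, edgeR, every gene above 0, median-of-ratios size factors and a pseudocount of 0.1, and 0 to 1 with a library left out. Cbfa2t3 peaks assigned to members were 3 within 10 kb and 1 at a score of at least 30. Overlapping peaks were 2, 1 per factor, once those in or before the genes were added, an alternative chosen after seeing the data, as was the use of accessions for unnamed peaks. An RBPJ core was in 2 whole Zbtb1 peaks, and in 100 bp windows a Runx core and an E box were in 0 Zbtb1 peaks each and an RBPJ core in 1 Cbfa2t3 peak. The cause of these changes was not tested. Depth limits *Notch3*, *Hes1* and *Nrarp*, which had 38 to 63 reads each over all libraries.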
